A study of Bos taurus with 6 samples.

Results

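The genes described here code for the extracellular matrix of the ovarian follicle: the collagens, laminins, linkers and heparan sulphate proteoglycans of the basal lamina, the interstitial collagens and elastic fibre proteins of the wall, and the adhesive and matricellular proteins around them. They were 44 genes listed by name and read through every array probe whose annotated symbol, or an unambiguous synonym of it, was one of them. A named probe was present for 41 of the 44 (50 probes), of 15216 genes with a named probe on the array. The other 3 genes, COL5A1, COL5A2 and LAMA2, are named only. Of the 41, 25 genes were bright enough to be tested, of 9002 tested genes in all.

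The study compared granulosa cells, the cells that line the follicle and nurse the oocyte, between 3 aged cows (multiparous, numbered 13, 110 and 126) and 3 young cows (nulliparous heifers, numbered 11, 7 and 184), all Hereford. Every cow was synchronised with prostaglandin F2 alpha, received 25 mg of luteinizing hormone (LH) on day 6 after ovulation, and had the dominant follicle collected on day 7, 24 h later, so that both ages carry the same hormone treatment. An aged and a young cow always shared the same arrays, which makes 3 pairs (13 with 11, 110 with 7, 126 with 184), and a pair had 2 2-colour arrays with its dyes, Cy3 and Cy5, swapped between them. The cells were spun out of follicular fluid, and their RNA was amplified linearly in 2 rounds. The labels give no ages in years. They speak of mothers and daughters without saying that the cows of an array are such a pair, and of aspiration or ovary removal, and of freezing or a preservative, without tying these to a cow.

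Granulosa cells rest on a basal lamina, a sheet in which a collagen IV network and a laminin network are joined by nidogens and by the proteoglycan perlecan, and which keeps blood vessels and white cells out of the granulosa layer until ovulation. Laminins are trimers of an alpha, a beta and a gamma chain, and collagen IV is a trimer of alpha chains. In cattle, granulosa cells make part of this lamina themselves, while the interstitial collagens of the wall are mainly products of theca and stromal cells outside it. After the LH surge the lamina is remodelled and broken through.

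Values per cow are log2 signals, comparable between cows for a given probe but not between probes, and a level near 8.3 lies at background. Ratios are log2(aged / young) within a pair, averaged over its 2 dye-swapped arrays, so that a positive ratio is higher in the aged cow and 1 unit is a 2-fold difference. Means are over 3 pairs with the SD between pairs (n = 3). Between 56.3% and 69.4% of probes in aged channels and between 49.4% and 71.8% in young channels lay above the negative control spots. The negative control spots averaged 199.8 to 262.9 intensity units in aged channels and 279.8 to 400.5 units in young channels, and were brighter in the young channel on all 6 arrays. The threshold was set per channel. Of the tested genes, 1754 passed it through the aged channels only and 255 through the young channels only, and their part in the counts was not tested. Among the 25 matrix genes, 7 passed through the aged channels only (LAMA1, NID2, DCN, LUM, FBLN1, SDC2 and SDC4), 1 through the young channels only (LOX) and 17 through both. The dye-swapped arrays of a pair correlated across tested probes with r = 0.847 for cows 13 and 11, 0.844 for cows 110 and 7 and 0.614 for cows 126 and 184.

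No matrix gene passed the test between aged and young cows. Across all 20787 tested probes, limma with Benjamini-Hochberg adjustment called 0 (0%), and 10.4% had an unadjusted p under 0.05 (1325 higher and 846 lower in aged cows). Of the 25 tested matrix genes, 1 had an unadjusted p under 0.05, HSPG2, which was lower in aged cows, as were 3.99% of all tested genes at that threshold, and 0 were higher, where 7.56% of all tested genes were. With 3 pairs, an exact sign-flip test of any single gene could not go below p = 0.25. The median ratio over the tested matrix genes was -0.07 (0.09 with median centring of the arrays in place of loess), and its value by pair was -0.01 (aged cow 13), 0.24 (110) and -0.22 (126). Over all tested genes it was 0.06, and by pair 0.02, 0.03 and 0.03.

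The pairs did not move together. Only FBLN1 was higher in the aged cow of all 3 pairs, 1 of 25 where the share of all tested genes was 22.6%, and 4 of 25 (HSPG2, AGRN, COL1A1 and ELN) were lower in all 3, where that share was 16.1%. A common direction in all pairs was thus found for 5 of 25 matrix genes and for 38.7% of all tested genes, and the other 20 changed sign between pairs. On all 6 arrays, FBLN1 was higher (12.1% of tested genes) and HSPG2 and AGRN were lower (6.28%). Of the 25, the levels of the 3 aged cows all lay above those of the 3 young cows for FBLN1 alone (12.2% of tested genes), and all below them for HSPG2, AGRN and COL1A1 (6.04% of tested genes). At least 2-fold differences, in either direction, were found for 8 of 25 matrix genes in the pair of aged cow 13 (17.9% of tested genes), 7 in the pair of 110 (20.1%) and 8 in the pair of 126 (8.93%). Cows of the same age also differed from each other by several log2 units for some matrix genes.

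**Figure D1:**
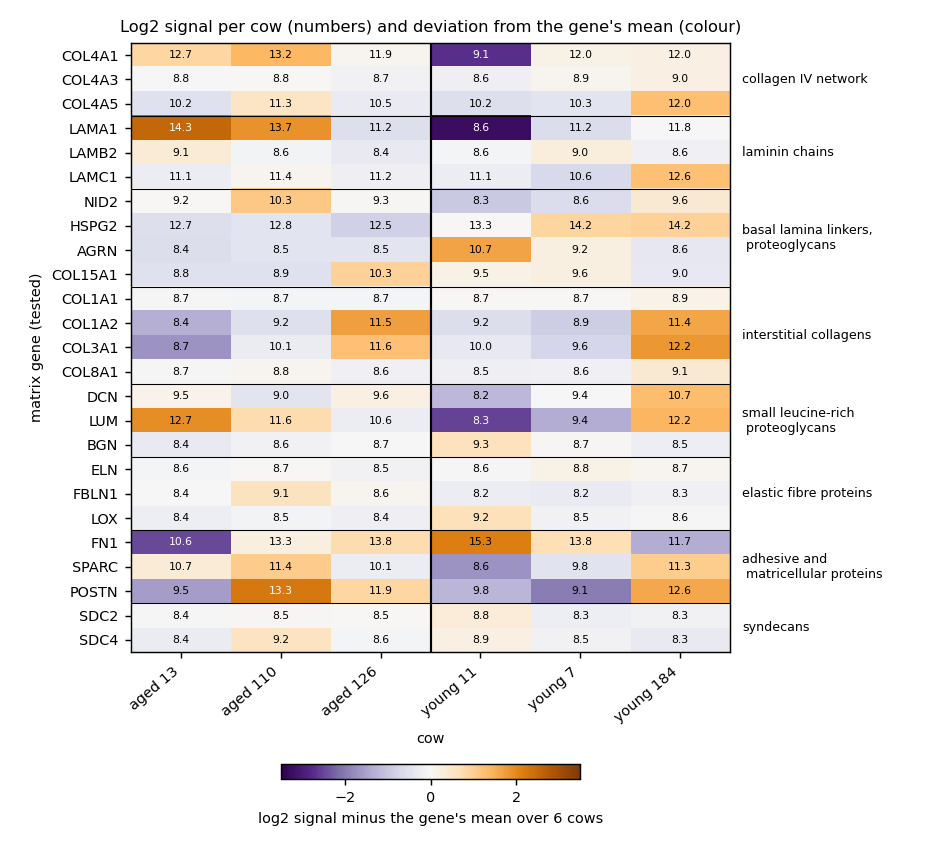
Log2 signal of the 25 tested matrix genes (rows, grouped by role) in the 3 aged and the 3 young cows (columns). Numbers are the levels and colours the deviation from the gene's mean over the 6 cows; LAMA1, COL4A1 and LUM are at their lowest in young cow 11, and COL1A2 and COL3A1 at their highest in the cows of the pair of 126 and 184.

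The collagen IV network was represented by 5 genes, of which COL4A1, COL4A3 and COL4A5 were tested. COL4A1, which codes for the alpha 1 chain of the main basal lamina trimer, stood at 12.69, 13.20 and 11.91 in aged cows 13, 110 and 126, against 9.10, 11.99 and 12.03 in young cows 11, 7 and 184. Young cow 11 was the lowest by far, and young cows 7 and 184 both exceeded aged cow 126, so the groups overlapped. The ratio averaged 1.56 ± 1.88 (SD, n = 3 pairs; limma adjusted p = 0.603), and was 0.54 without the pair of aged cow 13. COL4A2, the partner chain in the same trimer, has no protein-coding gene between it and COL4A1 in the RefSeq gene table. Its probe lay too low to be tested, and its pair ratios were 1.12, 0.28 and 0.41.

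COL4A5 codes for a chain of the other collagen IV trimers. It stood at 10.23, 11.27 and 10.46 in aged cows, against 10.20, 10.28 and 12.02 in young cows. Young cow 184 was the highest, and the groups overlapped. Its mean ratio of -0.18 ± 1.29 (SD, n = 3 pairs; limma adjusted p = 0.906) turned to 0.12 with median centring and 0.51 without the pair of aged cow 126. A second tested probe of COL4A5, dimmer, averaged 0.03. COL4A3 stayed between 8.60 and 8.97 in all 6 cows. COL4A4, its neighbour in the genome and partner in a trimer, stayed between 8.13 and 8.45 and was not tested.

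Of the laminin chains, LAMA1, LAMB2 and LAMC1 were tested of 6 with a probe. LAMA1, the alpha 1 chain, differed more within a pair than any other tested matrix gene: it stood at 14.32, 13.65 and 11.21 in aged cows, against 8.55, 11.18 and 11.77 in young cows. In young cow 11 it was at background, and above the negative controls on 1 of 2 arrays. In aged cows 13 and 110 it exceeded every young cow, while aged cow 126 lay among the young cows. The ratio averaged 2.56 ± 3.16 (SD, n = 3 pairs; limma adjusted p = 0.608), with pair ratios of 5.77, 2.48 and -0.56, and was 0.96 without the pair of aged cow 13.

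LAMC1, the gamma 1 chain shared by most laminins, stood at 11.11, 11.45 and 11.16 in aged cows, against 11.11, 10.65 and 12.60 in young cows. The aged cows differed little among themselves, and young cows 7 and 184 lay on either side of them. Its ratio averaged -0.22 ± 1.14 (SD, n = 3 pairs; limma adjusted p = 0.873) and turned to 0.086 with median centring and 0.40 without the pair of aged cow 126. A dimmer tested probe of LAMC1 averaged 0.03. LAMB2, the beta 2 chain, ranged from 8.41 to 9.06. The beta 1 chain gene LAMB1 stayed between 8.23 and 8.36, and LAMA4 between 8.14 and 8.37, both untested. LAMA5 was untested too, at 8.39 to 8.62 in aged cows and 8.58 to 9.27 in young cows.

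HSPG2, which codes for perlecan, had the smallest unadjusted p of the tested matrix genes. Its level was 12.73, 12.84 and 12.47 in aged cows, against 13.29, 14.17 and 14.23 in young cows. The 3 aged cows lay within a narrow band, and every young cow exceeded them. Its ratio was -0.56 in the pair of aged cow 13, -1.33 in that of 110 and -1.76 in that of 126, a mean of -1.22 ± 0.61 (SD, n = 3 pairs; limma unadjusted p = 0.0251, adjusted p = 0.463). All 6 arrays had a negative ratio. The 2 arrays of the pair of 126 lay furthest apart, at -2.29 with aged RNA in Cy3 and -1.23 with aged RNA in Cy5.

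In the ratios computed here, the pattern of HSPG2 over the pairs was not particular to it. Of all tested probes, 218 others (1.05%) lay within 0.25 log2 units of it in each of the 3 pairs, a limit chosen after the values were seen. Of these, 103 carried a gene symbol, and none was a matrix gene. The nearest were EPHB4, an ephrin receptor, at -0.54, -1.34 and -1.72, ZCCHC12 at -0.51, -1.28 and -1.81, and PCMTD1 at -0.51, -1.29 and -1.80. In the authors' deposited table HSPG2 had pair ratios of -0.93, -1.41 and -1.59, and only 16 of the 218 probes stayed within the same limit of it there. How many of all tested probes lay within that limit in the authors' table was not counted. The 218 probes were all bright, with mean log2 signals of 10.24 to 14.40. One was a probe of NR5A2, at -0.54, -1.33 and -1.86. Another tested probe of NR5A2 had 5.12, 3.40 and -0.07, so the pattern was not shared by all probes of that gene. What these probes share besides a bright signal was not tested.

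**Figure D2:**
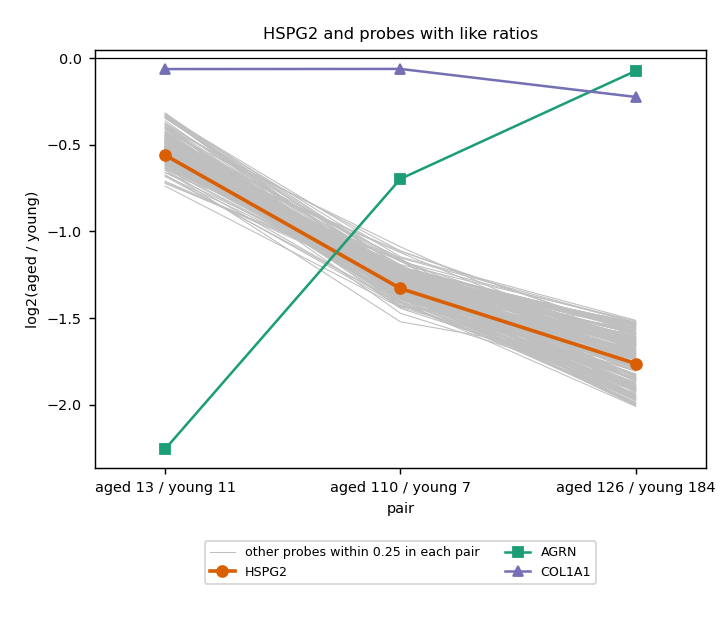
Ratio of aged to young cow, as log2, in each of the 3 pairs for HSPG2 (thick line), for the 218 other tested probes within 0.25 log2 units of it in every pair (grey), and for AGRN and COL1A1, the 2 other tested matrix genes whose aged cows all lay below the young cows. HSPG2 runs inside the grey band because the grey probes were chosen by their closeness to it. AGRN runs the opposite way over the pairs, and COL1A1 stays close to 0.

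AGRN codes for agrin, the other heparan sulphate proteoglycan among the basal lamina genes tested. It stood at 8.40, 8.53 and 8.54 in aged cows, against 10.66, 9.23 and 8.61 in young cows. The aged cows were near background, young cow 11 was the highest, and young cow 184 lay just above the aged cows. Its mean ratio of -1.01 ± 1.13 (SD, n = 3 pairs; limma adjusted p = 0.587) shrank to -0.38 without the pair of aged cow 13. Its pair ratios of -2.26, -0.70 and -0.07 were largest where those of HSPG2 were smallest.

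NID2, a nidogen that bridges laminin and collagen IV, stood at 9.22, 10.32 and 9.26 in aged cows, against 8.28, 8.61 and 9.62 in young cows. Aged cow 110 was the highest, young cow 184 came next, and the groups overlapped. Its mean ratio was 0.76 ± 1.04 (SD, n = 3 pairs; limma adjusted p = 0.635), and 0.29 without the pair of aged cow 110. Young channels were above background on 2 of 6 arrays, so NID2 was tested through the aged channels only. NID1, the other nidogen gene, was above background on no array. COL15A1, whose collagen links the lamina to the fibres beneath, had pair ratios of -0.70, -0.73 and 1.29, and COL18A1, the related collagen from which endostatin is cut, stayed between 8.28 and 8.52, untested.

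**Figure D3:**
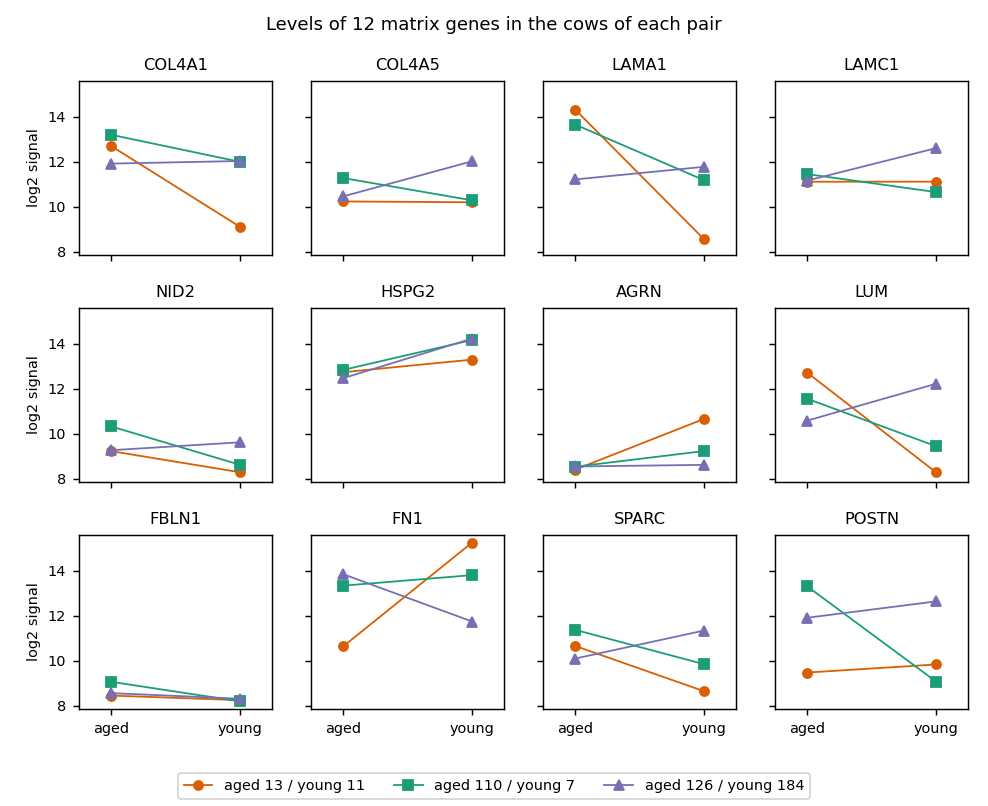
Log2 signal of 12 matrix genes in the aged cow (left) and the young cow (right) of each pair, with a line joining the cows that shared arrays. HSPG2 and AGRN slope upward to the young cow in every pair and FBLN1 slopes downward in every pair; the lines of the other 9 genes run in both directions.

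Of 8 interstitial collagen genes with a probe, 4 were tested. COL1A2, a chain of collagen I, and COL3A1, the chain of collagen III, are given here after their values were seen. COL1A2 stood at 8.40, 9.21 and 11.45 in aged cows, against 9.16, 8.86 and 11.35 in young cows. COL3A1 stood at 8.68, 10.10 and 11.63 in aged cows, against 10.02, 9.61 and 12.18 in young cows. Both were highest in aged cow 126 and young cow 184, the cows of 1 pair, and the groups overlapped. Their mean ratios were -0.10 ± 0.58 for COL1A2 and -0.47 ± 0.92 for COL3A1 (SD, n = 3 pairs; limma adjusted p = 0.884 and 0.708). The scan names carry slide numbers that no label repeats. By them the pairs of 13 and 110 were on a common slide and the pair of 126 was on others, so for the pair of 126 slide and cows cannot be told apart.

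COL1A1, the other chain of collagen I, was dim: 8.68, 8.68 and 8.67 in aged cows, against 8.74, 8.74 and 8.90 in young cows. The groups did not overlap, by a narrow margin, and the mean ratio was -0.12 ± 0.09 (SD, n = 3 pairs; limma adjusted p = 0.606). COL8A1 ranged from 8.54 to 9.12. The 3 chains of the microfibrillar collagen VI and the fibril-associated COL12A1 were not tested. COL6A1 was above background on no array, COL6A2 and COL6A3 stayed between 8.24 and 8.41, and COL12A1 reached 8.67 in aged cow 110.

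The small leucine-rich proteoglycans bind collagen fibrils and set their spacing. LUM, which codes for lumican, stood at 12.72, 11.55 and 10.58 in aged cows, against 8.28, 9.44 and 12.22 in young cows. Young cow 11 was at background and young cow 184 exceeded 2 of the aged cows, so the groups overlapped. Its pair ratios were 4.43, 2.11 and -1.64, a mean of 1.63 ± 3.07 (SD, n = 3 pairs; limma adjusted p = 0.7), and the mean was 0.24 without the pair of aged cow 13. DCN, which codes for decorin and has no protein-coding gene between it and LUM in the RefSeq gene table, had pair ratios of 1.30, -0.43 and -1.09, with 1 of its 6 spots ignored by the image software and left out. BGN, which codes for biglycan, ranged from 8.40 to 9.33.

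Among the elastic fibre genes, FBLN1 was the only tested matrix gene with a positive ratio in all 3 pairs. FBLN1 codes for fibulin 1, which binds fibronectin, nidogen and elastin. It stood at 8.45, 9.06 and 8.56 in aged cows, against 8.24, 8.19 and 8.31 in young cows. The groups did not overlap, but the young cows were at background, with 1 of 6 young channels above the negative controls. FBLN1 was tested through the aged channels only, so its entry into the test rested on the signal of the aged cows. Its mean ratio was 0.44 ± 0.37 (SD, n = 3 pairs; limma adjusted p = 0.528). The mean was 0.23 without the pair of 110, and 0.85 with spot medians, 0.75 with plain background subtraction and 0.74 with the ratios of the authors' deposited table.

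The other elastic fibre genes stayed low. ELN, which codes for elastin, ranged from 8.54 to 8.83 at its representative probe, with a mean ratio of -0.12; its other 2 tested probes averaged -0.06 and -0.10. LOX, the enzyme that crosslinks collagen and elastin, ranged from 8.39 to 9.24, with young cow 11 the highest. FBN1, which codes for the microfibril protein fibrillin 1, was not tested and stood out in 1 cow, at 9.83 in young cow 11 with 8.23 to 8.51 in the other 5. FBLN5 stayed between 8.24 and 8.39, untested.

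FN1, which codes for fibronectin, an adhesive protein that cells grip through integrins, ran opposite ways in different pairs. It stood at 10.64, 13.34 and 13.85 in aged cows, against 15.25, 13.81 and 11.74 in young cows. Aged cow 13 was the lowest of all 6 and young cow 11, on the same arrays, the highest. The pair ratios were -4.62, -0.47 and 2.10, a mean of -0.99 ± 3.39 (SD, n = 3 pairs; limma adjusted p = 0.804), and the mean turned to 0.82 without the pair of aged cow 13.

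SPARC, a collagen-binding matricellular protein of the basal lamina, stood at 10.66, 11.37 and 10.10 in aged cows, against 8.64, 9.84 and 11.34 in young cows. Young cow 11 was the lowest, and young cow 184 nearly matched the highest aged cow. Its mean ratio was 0.77 ± 1.76 (SD, n = 3 pairs; limma adjusted p = 0.736), and 0.14 without the pair of aged cow 13. POSTN, which codes for periostin, a collagen-associated protein of fibroblasts, stood at 9.47, 13.31 and 11.91 in aged cows, against 9.83, 9.07 and 12.64 in young cows. Its mean of 1.05 ± 2.76 (SD, n = 3 pairs; limma adjusted p = 0.758) rested on the pair of aged cow 110, at 4.24, and was -0.54 without it.

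TNC and SPP1 completed this group without a test. TNC, which codes for tenascin C, stood at 8.19, 9.32 and 9.39 in aged cows, against 8.15, 8.32 and 8.22 in young cows, so 2 aged cows exceeded every young cow and aged cow 13 lay among them. SPP1, which codes for osteopontin, stayed between 8.25 and 8.50. The syndecans carry heparan sulphate at the cell surface. SDC2 ranged from 8.25 to 8.76 and SDC4 from 8.32 to 9.22, with ratios of either sign. SDC1, untested, stood at 8.30, 8.41 and 8.22 in aged cows, against 9.34, 10.05 and 8.39 in young cows, higher in young cows 11 and 7 than in the other 4.

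**Figure D4:**
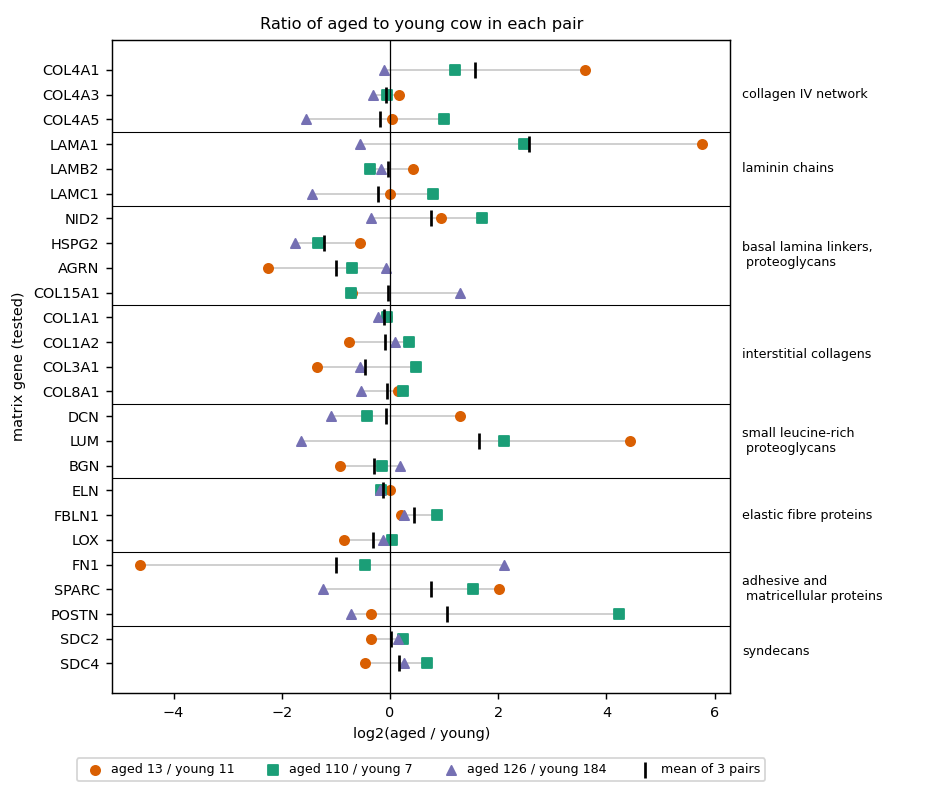
Log2(aged / young) of the 25 tested matrix genes, grouped by role, in each of the 3 pairs (coloured symbols) and as the mean of the pairs (black bar). LAMA1, COL4A1 and LUM reach 5.77, 3.60 and 4.43 in the pair of aged cow 13 and lie below 0 in the pair of 126, and FN1 runs the other way, at -4.62 and 2.10.

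A pattern shared by several matrix genes, picked out after the values were seen, was a higher level in aged cows 13 and 110 with a lower one in aged cow 126. It held for 7 of the 25 (COL4A1, COL4A5, LAMA1, NID2, COL8A1, LUM and SPARC), where 16.2% of all tested genes had it. Of these, LAMA1, NID2 and LUM were tested through the aged channels only. COL4A5 was counted on a ratio of 0.04 in the pair of 13. COL4A1 was counted on a ratio of -0.12 in the pair of 126, where its arrays had 0.008 and -0.24. The opposite pattern held for 3 of the 25 (COL15A1, BGN and FN1), where the share was 13.9%. In the pair of aged cow 126, 7 of 25 matrix genes had a positive ratio, compared with 11 in the pair of 13 and 15 in the pair of 110. The share of all tested genes with a positive ratio was not counted per pair. Their median was 0.02 in the pair of 13, 0.03 in that of 110 and 0.03 in that of 126. Some counted ratios lay near 0, such as ELN at -0.008 in the pair of 13 and LOX at 0.03 in the pair of 110.

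Markers of granulosa and other cells differed between the same cows. Of 13 granulosa markers, 8 were tested. The log2 of their summed signals was 16.27 to 17.03 in aged cows and 14.02 to 16.96 in young cows, with young cow 11 the lowest. Sums of the other marker lists were taken in the same way, and the brightest probes weigh most in them. In young cow 11 the brightest tested granulosa marker was NR5A2, at 13.36 by its representative probe, so that probe weighs most in the sum there. Probes at background add to a sum too, so sums are not comparable between lists. INHA, the inhibin alpha subunit, stood at 15.11, 15.10 and 14.87 in aged cows, against 10.48, 15.05 and 15.17 in young cows. INHA was above background on 1 of 2 arrays in young cow 11, and its ratio in that pair was 2.43 on one array and 6.83 on the other. GATA4, a transcription factor of granulosa cells, stood at 13.34, 12.85 and 12.07 in aged cows, against 8.81, 11.31 and 12.86 in young cows. On both arrays of that pair GATA4 had a ratio of 4.53. INHBA, the inhibin beta A subunit, stood at 15.10, 11.43 and 11.96 in aged cows, against 10.49, 15.37 and 11.61 in young cows, and so went against GATA4 in the pair of 110; in young cow 11 it too was above background on 1 of 2 arrays. LAMA1, COL4A1, LUM and SPARC were lowest in young cow 11, the cow with the lowest INHA and GATA4. Of the 8 tested granulosa markers, only NR5A2 was not lowest there, and this rested on its representative probe. The representative probe of NR5A2 stood at 13.36 in young cow 11, against 12.81, 12.30 and 11.60 in aged cows. Its other tested probes were lowest in young cow 11. One stood at 8.46 there, against 13.59, 13.34 and 11.25 in aged cows. The other, dimmer, stood at 8.37 there, against 9.11, 8.77 and 8.53 in aged cows. The FSH receptor gene FSHR and the aromatase gene CYP19A1 were not tested, and CYP19A1 reached 13.03 in aged cow 13, with 8.36 to 9.68 in the other 5 cows.

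Of 16 epithelial markers, 11 were tested, and 9 of these (all but PERP and ELF3) had their 2 highest levels in young cows 11 and 7. The log2 of the summed signals of the 11 was 13.78 to 14.44 in aged cows and 14.94 to 17.21 in young cows. EPCAM, an epithelial adhesion molecule, stood at 8.23, 8.80 and 9.26 in aged cows, against 15.00, 12.98 and 9.78 in young cows. KRT19, a keratin, stood at 9.20, 9.45 and 12.16 in aged cows, against 14.69, 15.37 and 11.53 in young cows, and the desmosomal protein gene PPL was at 14.66 and 15.08 in young cows 11 and 7 too. AGRN and SDC1 had their 2 highest levels in young cows 11 and 7, the cows with the highest EPCAM, KRT19 and PPL, and FN1 had its highest level in young cow 11. The part of these marker differences in the matrix ratios was not tested. In RNA from a whole sample, fewer cells of a type and less RNA per cell cannot be told apart.

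**Figure D5:**
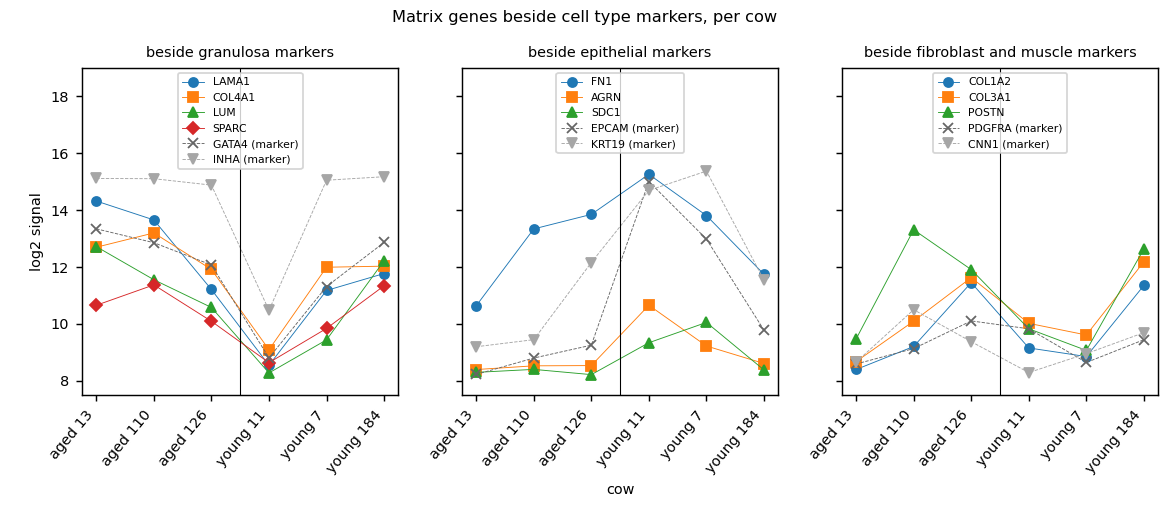
Log2 signal per cow, aged cows left and young cows right of the vertical line, of matrix genes beside granulosa markers (left panel), epithelial markers (middle) and fibroblast and smooth muscle markers (right); thin lines only guide the eye between cows. LAMA1, COL4A1, LUM and SPARC are low in young cow 11 with INHA and GATA4, and AGRN and SDC1 are high in young cows 11 and 7 with EPCAM and KRT19.

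The tested fibroblast and smooth muscle markers overlapped between the ages in their levels. Of 11 fibroblast and smooth muscle markers outside the matrix genes, 6 were tested. The log2 of their summed signals was 11.90 to 13.16 in aged cows and 12.25 to 13.23 in young cows. PDGFRA, a fibroblast receptor, stood at 8.60, 9.14 and 10.11 in aged cows, against 9.83, 8.65 and 9.45 in young cows. The smooth muscle gene CNN1 stood at 8.66, 10.50 and 9.38 in aged cows, against 8.29, 8.96 and 9.70 in young cows, highest in aged cow 110, where POSTN was highest too. Added after their values were seen, ACTA2 ranged from 9.99 to 11.86 in aged cows and from 9.91 to 11.12 in young cows, and DES from 9.54 to 11.44 in aged cows and from 10.62 to 12.68 in young cows. Theca markers (5 of 7 tested) summed to 11.68 to 13.12 in aged cows and 12.02 to 13.33 in young cows. CYP17A1, a theca marker that was not tested, was near background in every cow, all sampled 24 h after LH. Whether theca cells were present was not tested. PTCH1 and ALDH1A1 spread most among them, with PTCH1 at 12.85 in aged cow 110 and ALDH1A1 at 12.88 in young cows 11 and 7.

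Endothelial markers (6 of 11 tested) summed to 11.10 to 11.12 in aged cows and 11.09 to 11.22 in young cows, with PECAM1 at background. The median level of the tested endothelial markers was 8.50 to 8.63 over the cows, close to background, so background makes up much of these sums. CLDN5 and EGFL7 spread most among them, and neither passed 8.84 in any cow. Leukocyte markers (8 of 11 tested) summed to 13.17 to 15.07 in aged cows and 13.63 to 14.64 in young cows, with TYROBP, a signalling adaptor of myeloid cells, at 13.87 in aged cow 126 and CD3E, a T cell receptor subunit, at 10.45 there. Erythrocyte markers (3 of 5 tested) summed to 10.04 to 11.63 in aged cows and 10.71 to 12.74 in young cows. HBB stood at 11.24 in aged cow 126 and 12.57 in young cow 184, above the other 4 cows, and these were the cows with the highest COL1A2 and COL3A1. SLC4A1 reached 10.68 in young cow 11. Their part in the matrix values was not tested either.

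Among receptors, enzymes and other matrix genes, limma called 0 of 45 tested after adjustment. At an unadjusted p under 0.05, 2 of the 45 were higher (ITGA6 and OGN) and 2 lower (ITGB6 and FBN2), where the shares of all tested genes were 7.56% and 3.99%. Of 19 matrix receptor genes 9 were tested, and the ratio was positive in all 3 pairs for 4 and negative in all 3 for 2 (22.6% and 16.1% of all tested genes), with a median of 0.07. ITGB6, an epithelial integrin subunit, had pair ratios of -0.49, -1.27 and -0.98 (limma unadjusted p = 0.018, adjusted p = 0.463). Its levels overlapped between the ages, at 10.83, 11.31 and 9.49 in aged cows, against 11.32, 12.58 and 10.47 in young cows. The dye-swapped arrays of a pair lay up to 1.06 units apart for it. ITGA6, a laminin-binding subunit, had 0.11, 0.26 and 0.35 (limma adjusted p = 0.478), ITGB5 had 0.96, 0.47 and 0.17, and ITGB1, tested through the aged channels only, had 0.12, 0.21 and 0.09. CD44, the hyaluronan receptor, had the signs of FN1, with -2.03, -1.46 and 1.52.

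Of 19 genes for collagen folding, modification and crosslinking, 14 were tested, with 3 higher in all 3 pairs, 0 lower in all 3 (22.6% and 16.1% of all tested genes) and 0.38 as the median ratio. The 3 were CRTAP (0.12, 0.45 and 0.16) and P4HA2 (0.21, 0.56 and 0.12), which serve prolyl hydroxylation, and TGM2 (0.25, 1.24 and 0.24), a transglutaminase that was tested through the aged channels only. Other tested probes of P4HA2 averaged -0.09 and -0.02, and CRTAP had the same sign on 4 of 6 arrays. SERPINH1, the collagen chaperone of the endoplasmic reticulum, had 1.29, 0.51 and -0.06, and was also tested through the aged channels only. LOXL2 was at background. In this list, 7 of 14 were higher in the pairs of 13 and 110 and lower in that of 126, as LAMA1 was and as 16.2% of all tested genes were. That pattern had been picked out after the values were seen. Of the 7, SERPINH1 and P4HA3 were tested through the aged channels only. PLOD2 was counted by its representative probe, and a dimmer tested probe of it, also through the aged channels only, had 0.48, 0.26 and 0.23.

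The epithelial anchoring complex, the hemidesmosome with its ligands, was covered by 3 tested genes. DST, a hemidesmosomal plakin, had pair ratios of 0.81, 1.84 and 0.22, LAMB3 had -0.19, -0.03 and -0.19, and ITGA6, which is also a receptor above, was the other; LAMA3 had no named probe. Of 11 further collagens 4 were tested, 0 higher and 1 lower in all 3 pairs (22.6% and 16.1% of all tested genes). COL27A1, tested through the aged channels only, stood at 9.57, 8.54 and 8.83 in aged cows, against 11.84, 10.96 and 8.30 in young cows, highest in young cows 11 and 7. COL21A1 had pair ratios of 1.04, 0.69 and -0.18, and COL2A1 stayed near background.

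Of 29 other matrix and matricellular genes 16 were tested, with a median ratio of -0.03. The ratio was positive in all 3 pairs for 1 and negative in all 3 for 2 (22.6% and 16.1% of all tested genes). FBN2, which codes for fibrillin 2, had the smallest unadjusted p of this list, with pair ratios of -0.49, -0.76 and -0.66 (limma unadjusted p = 0.00421, adjusted p = 0.463). It stood at 9.03, 9.15 and 8.57 in aged cows, against 9.52, 9.91 and 9.23 in young cows, and no aged cow reached a young one. Its 2 arrays of the pair of 126 were 1.27 units apart. The other probes of FBN2, dimmer and not tested, averaged -0.36 and -0.06. CCN1, a matricellular protein that binds integrins, had -1.48, -0.23 and -1.42 (limma adjusted p = 0.483), and OGN, a small leucine-rich proteoglycan tested through the aged channels only, had 0.67, 0.55 and 0.15 (limma adjusted p = 0.467). VCAN, the hyaluronan-binding proteoglycan of the expanding cumulus and follicle wall, had 1.80, 0.41 and -0.52, and was tested through the aged channels only.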

How the data were processed

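Scanner output was deposited for each array. Per the file headers it holds unnormalised spot and local background intensity, as mean and as median, for each channel, and one other column that counts ignored cells; spots with any were left out here. The authors also deposited log2 ratios; their table correlated with the ratios computed here at r = 0.819 to 0.939 per array, all as aged over young. The submitters' processing notes name limma; the authors' background correction is not given in the sources used here.

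Spot means were background-corrected by normexp (offset 50) and loess-normalised within arrays in limma 3.58.1 (R 4.3.3), ratios were turned to log2 of aged over young and averaged over both dye orientations, and the 3 pair values were fitted by lmFit and eBayes (two-sided, Benjamini-Hochberg over all tested probes, threshold 0.05). The cows of a pair shared arrays, so pairing is built into the ratios (consensus correlation of the arrays of a pair 0.802); a fit with no replicate block also called 0 probes. Replicates are separate cows. The number of arrays limits the precision.

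To be tested, a probe had to lie more than 2 SD over the mean of 153 negative controls on every array in the aged channels, the young channels or both (20787 of 43794 probes). The one ignored negative control spot was left out of that threshold. Levels per cow are log2 signals after loess and Aquantile normalisation. Probes were named through the platform annotation, with older symbols updated through the RefSeq gene table; 21790 have 1 symbol, 0 have several and 22004 have none. A gene is represented by its probe of highest mean signal. Coordinates are left out, since the annotation states no genome build.

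Named matrix genes had the same sign on all 6 arrays, or were among the 10 with the largest ratio in any pair or the 6 of highest signal. From each context list up to 3 tested genes of smallest p were named, and from each marker list up to 2 of largest range over pairs, besides LAMA3, LAMB3, VCAN, SERPINH1, ITGB1, LOXL2, CD44, EPCAM, KRT19, INHA, TYROBP, PDGFRA, CYP17A1 and PECAM1. One gene of these lists is not reported here. Other matrix genes are given to account for every one. The matrix genes and lists were chosen with earlier results of these data known.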

Additional observations from a re-analysis of the deposited data

How the results depend on the processing

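In the 17 alternatives fitted over all probes (background correction, spot medians, normalisation, filter, the authors' log2 ratios, 1 dye orientation, block fits, and leaving out a pair), 0 probes passed the threshold. With 1 more, the mean over all tested probes of a gene, 0 of 211 values of the 12 named matrix genes did, with limma adjusted p from 0.228 to 0.991. Of those values 204 kept their sign. The reversals were COL4A5 at 0.12 with median centring and 0.017 with scale normalisation, LAMC1 at 0.086 with median centring, and with a pair left out COL4A5 (-0.76 to 0.51), LAMC1 (-0.72 to 0.40), FN1 (-2.54 to 0.82) and POSTN (-0.54 to 1.94), where the pairs of 126, 126, 13 and 110 gave the turned sign; beyond the omissions, which change the samples, the cause was not tested. With no replicate block, that is with the pair left out of the fit, 0 probes passed, 2300 had an unadjusted p under 0.05 and the median over matrix genes was -0.07; block and unpaired fits give no direction per pair. The median was 0.09 with median centring and ran from -0.10 to 0.05 with a pair left out. Probes at an unadjusted p under 0.05 were 2171 in the full fit, 542 (without the pair of 110) to 2967 (without that of 126) with a pair left out, and up to 3189 (no filter) elsewhere. Matrix genes higher in all pairs, 1 of 25 in the full fit, were 3 of 25 with median centring and 6 of 41 with no filter. They were 0 of 17 where both channels had to be above background, 2 of 24 for aged RNA in Cy5 only and 2 of 25 in Cy3 only. They were 0 of 22 with the ignored control spot kept in the threshold, an alternative chosen after seeing the data. With a pair left out they were 1 to 8, but then only 2 pairs had to agree, so these counts are not comparable with the full fit. Those lower in all pairs, 4 of 25 in the full fit, were 9 of 41 with no filter and 7 to 8 with a pair left out, where again only 2 pairs had to agree. The shares of all tested genes with a common direction were not counted under the alternatives. Low signal limits 16 of the 41 genes with a probe, which were not tested, and compresses ratios near background.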
